A study of Homo sapiens with 17 samples.

Results

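NUMA1 and VIM were compared at 1280 RNA regions where every library of both proteins had a deposited peak. The study mapped protein contacts on RNA by eCLIP, in which proteins are joined to bound RNA by ultraviolet light and 1 protein is recovered with an antibody, so that sequencing of the attached RNA shows where it was bound. All libraries came from 293T, an established human embryonic kidney line. Plated cells were irradiated with 400 mJ per square cm at 254 nm, and lysates were treated with RNase I. RNA was taken from a membrane region 75 kDa above the protein. The groups were NUMA1 eCLIP and VIM eCLIP, with 2 replicates each, recovered with an antibody against NUMA1 or VIM. Each protein also had 1 size-matched input, a library from the same range of the gel that skipped the antibody step. No treatment, knockdown or tagged construct is named in the labels for any of these groups, so the input was the only control. Peaks of the 4 lists on the same strand were merged where they shared at least 1 nt, and a region was kept when all 4 lists had a peak in it. The 4 lists gave 77645 merged regions, of which 62746 held a peak of 1 library, 11144 of 2 libraries, 2475 of 3 libraries and 1280 of all 4. The 11 lists of the series, over 6 proteins, gave 219602 merged regions. The choice used the presence of a peak and not its fold. The VIM lists were shorter than the NUMA1 lists, and whether the need for a peak in each list shifted the folds was not tested.

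VIM is vimentin, an intermediate filament protein of the cytoplasm that forms a network around the nucleus. NUMA1 is a large coiled-coil protein of the interphase nucleus that gathers at the spindle poles in mitosis and links microtubule ends to dynein. Neither is a classical RNA-binding protein, and both were studied here as candidates. In eCLIP a peak is read against its size-matched input, since abundant RNA also enters the input. The fold over input, and not the height of a peak, is then the measure of enrichment.

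The value of a library in a region was the authors' log2 fold over its own input, with several pieces of a library in a region averaged by length. A value of 0 means as much as in the input at equal depth. The shared regions held 1722 of 44739 deposited peaks (3.85%) in NUMA1 replicate 1 and 1621 of 29762 (5.45%) in NUMA1 replicate 2. They held 1488 of 10682 peaks (13.9%) in VIM replicate 1 and 1552 of 14443 (10.8%) in VIM replicate 2. A region was 10 to 378 nt long with a median of 73 nt. Total reads per library are unknown. Reads per peak were recovered from the folds and p-values, and those given for a region are of the longest piece of each library in it. The input had 1.80 and 3.18 times the depth of the NUMA1 libraries and 4.84 and 3.27 times that of the VIM libraries. Among regions where the reads were settled, the median was 25.0 eCLIP reads beside 23.5 input reads in NUMA1 replicate 1 and 19.0 beside 29.0 in NUMA1 replicate 2. In VIM replicate 1 it was 7.0 beside 12 and in VIM replicate 2 it was 9.0 beside 10.0, so single VIM values rested on fewer reads.

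In their library medians the shared regions were near or modestly above input, single regions spread widely, and few were strongly enriched. The median log2 fold over the 1280 regions was −0.01 in NUMA1 replicate 1, 0.40 in NUMA1 replicate 2, 0.90 in VIM replicate 1 and 0.49 in VIM replicate 2. The VIM libraries were at 0.69 ± 0.29 and the NUMA1 libraries at 0.19 ± 0.29 (SD, n = 2), a difference of 0.50. Both VIM libraries lay above both NUMA1 libraries, and the exact permutation test (2-sided) gave p = 0.33, the smallest that 2 against 2 libraries allow. All 4 libraries were above input in 493 regions and all 4 below it in 223. Quartiles over the regions were −0.67 and 0.90 in NUMA1 replicate 1 and −0.20 and 1.18 in NUMA1 replicate 2. They were −0.30 and 1.96 in VIM replicate 1 and −0.57 and 1.71 in VIM replicate 2. Significant peaks were those that reached 3 on both scales, the −log10 p and the log2 fold (8-fold over input). Significant peaks lay in 21 shared regions (1.64%) in NUMA1 replicate 1, 49 (3.83%) in NUMA1 replicate 2, 92 (7.19%) in VIM replicate 1 and 98 (7.66%) in VIM replicate 2.

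The proteins differed by more than their replicates did. The median absolute difference per region was 0.43 between the NUMA1 replicates and 0.56 between the VIM replicates, and it was 0.79 to 1.0 over the 4 pairs of a NUMA1 with a VIM library. Across the 1280 regions, which are not independent and share inputs, Spearman's rho was 0.84 between the NUMA1 replicates and 0.88 between the VIM replicates. NUMA1 replicate 1 was at 0.57 with each VIM library, and NUMA1 replicate 2 at 0.65 and 0.63. The 2 replicates of a protein had 1 input between them, and their folds share its counting error. The protein and its input cannot be told apart in this design.

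VIM minus NUMA1 had a median of 0.35 on the log2 scale and ran from −4.46 to 5.31, with 801 regions higher with VIM and 479 higher with NUMA1. Both VIM libraries were above both NUMA1 libraries in 525 regions (41.0%), and both NUMA1 libraries were above both VIM libraries in 240 (18.8%). By limma with Benjamini-Hochberg adjustment over the 1280 regions, 220 (17.2%) differed at an adjusted p under 0.05. Of these, 172 (13.4%) were higher with VIM and 48 (3.75%) higher with NUMA1, so VIM had 78.2% of the calls. The smallest called difference was 1.53 in either direction. When each library was centred on its median, 98 regions (7.66%) were called higher with VIM and 131 (10.2%) higher with NUMA1, and the VIM share of calls was 42.8%. The excess of VIM calls thus turned with the scaling, since centring removes the 0.50 between the proteins' medians. Of the 172 VIM calls 98 were also made after centring, which takes the same 0.50 from every difference. Without NUMA1 replicate 1, limma called 79 regions, 60 higher with VIM and 19 higher with NUMA1. Without NUMA1 replicate 2 it called 186, with 168 higher with VIM and 18 higher with NUMA1. Without VIM replicate 1 or without VIM replicate 2 it called 0, where 351 and 384 regions had an unadjusted p under 0.05, against 427 with all 4 libraries.

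**Figure D1:**
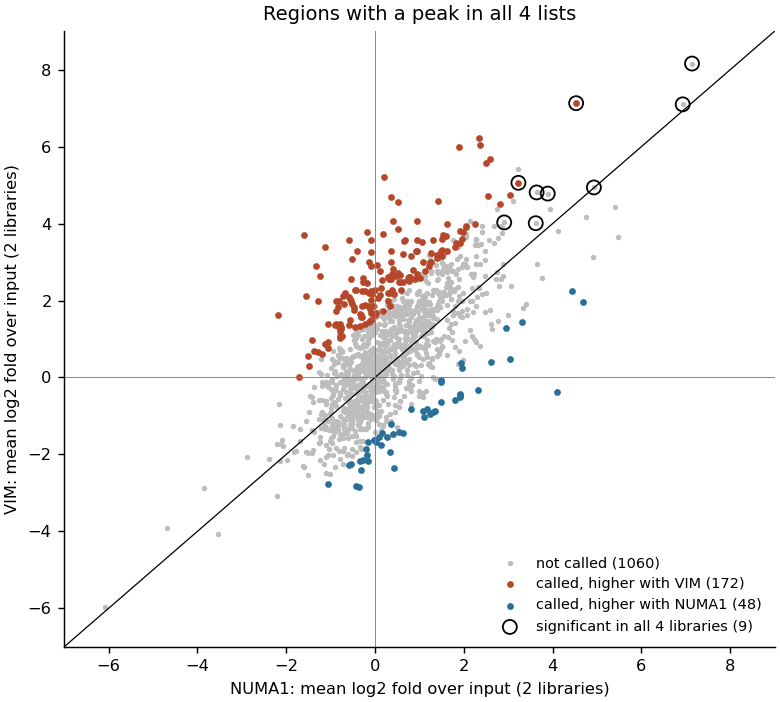
Mean log2 fold over input of the 2 VIM libraries (vertical axis) against that of the 2 NUMA1 libraries (horizontal axis) in the 1280 shared regions, with the line of equal values. The 172 regions called higher with VIM lie above the line, the 48 called higher with NUMA1 below it, and circles mark the 9 regions significant in all 4 libraries.

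The loci that both proteins shared at high enrichment were few. A significant peak of each of the 4 libraries was found in 9 regions (0.703%), named S1 to S9 here by falling mean. Where a library had several peaks in a region, 1 of them had to reach the thresholds, so the mean over pieces can lie slightly under 3. Of S1 to S9 only S9 was among the 739 regions with at least 10 input reads in each library (for the deepest piece). Coordinates are those of hg19, as deposited. The lists give no gene names, and no gene model of hg19 was used here, so loci are named by position and strand.

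S1 had the highest mean of the 9, at chr17:18965394-18965452 on the plus strand, 59 nt long. Its log2 folds were 6.43 and 7.84 with NUMA1 and 8.30 and 8.01 with VIM. At least 48, 72, 65 and 79 eCLIP reads stood beside at least 1 input read in the 4 libraries, where an input of 1 read cannot be told from none. S1 was also far above input with other proteins, at 8.93 and 8.85 in the RANGAP1 libraries, 6.30 and 5.69 in the AIFM1 libraries and 6.55 and 8.72 in the ZNF184 libraries. S2, at chr6:31958259-31958280 on the plus strand, had 6.79 and 7.08 with NUMA1 and 7.48 and 6.71 with VIM. The 2 proteins overlapped there, with a difference of 0.16 ± 0.51 (SE, adjusted p = 0.847 by limma). S2 was enriched in all 7 other libraries too, from 3.66 with RNF219 to 6.98 in RANGAP1 replicate 2. S1 and S2 were thus high with every protein that had a peak there. S1 differed between VIM and NUMA1 by 1.02 ± 0.56 (SE, adjusted p = 0.219), which did not pass.

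S3 and S7 were the only regions of the 9 that passed limma, both higher with VIM. S3, at chr14:103988909-103988945 on the minus strand, had 3.17 and 5.89 with NUMA1 and 6.73 and 7.52 with VIM. Its NUMA1 replicates lay further apart than those of the other 8, and the difference was 2.59 ± 0.73 (SE, adjusted p = 0.0297 by limma). S7, at chr2:230045564-230045708 on the minus strand, had 2.90 and 3.55 with NUMA1 and 5.19 and 4.93 with VIM, a difference of 1.83 ± 0.50 (SE, adjusted p = 0.0262). Neither passed after centring, at adjusted p = 0.0656 for S3 and 0.0553 for S7, or with a trended robust prior, at 0.112 and 0.124. Without NUMA1 replicate 1 limma gave S3 a difference of 1.23 (adjusted p = 0.364) and S7 one of 1.5 (adjusted p = 0.236). The longest pieces of S7 rested on 14 eCLIP beside 3 input reads and 9 beside 2 with NUMA1, and on 9 beside 1 and 7 beside 1 with VIM. Neither difference exceeded its counting interval from these reads. No peak of the RANGAP1 libraries lay in S3, while AIFM1 stood there at 2.32 and 2.29 and ZNF184 at 3.01 and 4.04.

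S4, S5, S6, S8 and S9 did not pass the test either. S4, at chr1:237766448-237766510 on the plus strand, had 4.02 and 5.84 with NUMA1 and 5.08 and 4.80 with VIM, so that the VIM values fell between the NUMA1 values. S8, at chr6:10887836-10887860 on the plus strand, was the most even, with 3.46 and 3.78 with NUMA1 and 4.01 and 4.0 with VIM. It rested on 55, 39, 30 and 44 eCLIP reads beside 9 input reads each, and was higher still in the ZNF184 libraries, at 7.06 and 8.19. Its difference was 0.38 ± 0.49 (SE, adjusted p = 0.628 by limma). S5, at chr1:90493084-90493250 on the plus strand, had 4.32 and 3.47 with NUMA1 and 4.86 and 4.71 with VIM. S5 lay close to input in the AIFM1 libraries, at 0.28 and −0.06, and in the ZNF184 libraries, at −0.38 and 0.83. S6, at chr19:34287639-34287706 on the plus strand, had 3.43 and 3.84 with NUMA1 and 4.60 and 5.03 with VIM, and 4.37 and 4.83 with RANGAP1. S9, at chr11:65190271-65190365 on the plus strand, had 3.00 and 2.82 with NUMA1 and 3.74 and 4.31 with VIM, with an adjusted p of 0.139 by limma. It was below input in both AIFM1 libraries, at −0.52 and −0.85, and in ZNF184 replicate 1, at −1.09. S5 and S9 were therefore high with NUMA1 and VIM and near input with AIFM1. They were also above input with RANGAP1, at 1.66 and 2.42 in S5 and 2.16 and 2.47 in S9.

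**Figure D2:**
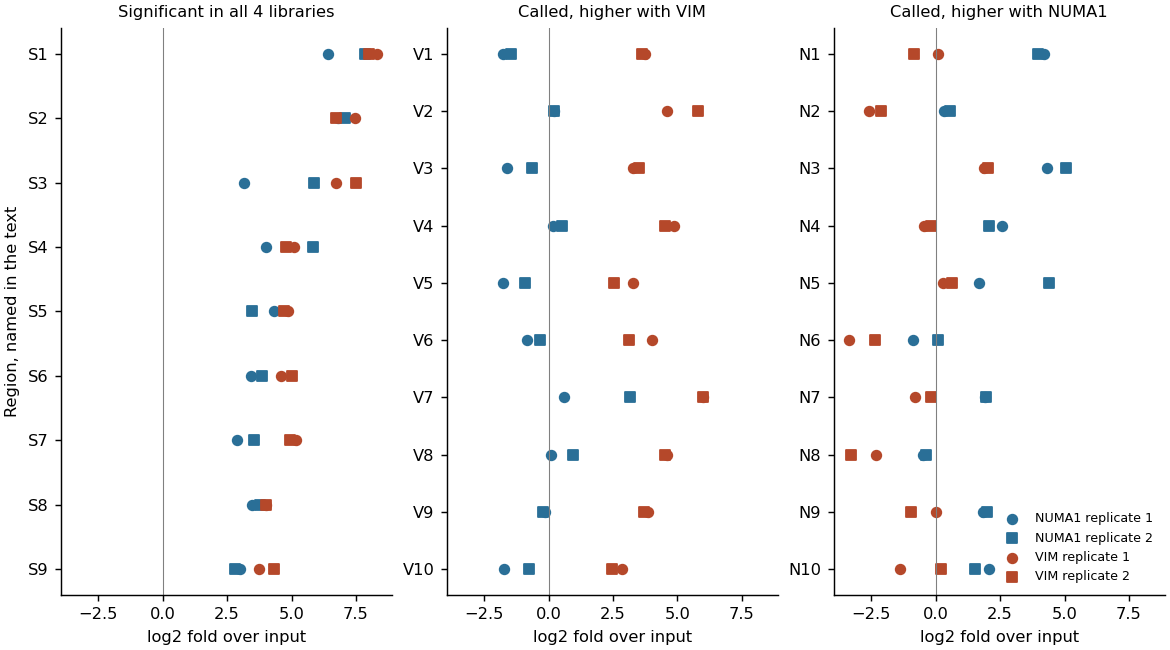
The log2 fold over input of each library in the 9 regions significant in all 4 libraries and in the 10 regions with the largest called difference in each direction, with circles for replicate 1 and squares for replicate 2. The VIM points lie right of both NUMA1 points for V1 to V10 and left of them for N1 to N10, while in S2 and S4 the proteins overlap.

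The regions called higher with VIM had NUMA1 medians near input but ranged widely. Over the 172, the medians were −0.09 and 0.29 in the NUMA1 libraries and 2.56 and 2.30 in the VIM libraries. VIM was above input in both libraries in 170 of them, and NUMA1 was below input in both in 55. NUMA1 replicate 1 ran from −2.57 to 3.17 over them. The 10 with the largest difference are named V1 to V10, and the difference in each was called under both scalings. None of them was among the 739 regions with at least 10 input reads in each library. In V2 the VIM values rested on 10 eCLIP beside 2 input reads and on at least 17 beside at least 1. In V7 they rested on at least 13 beside at least 1 and at least 155 beside at least 8.

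V1, at chrX:24094364-24094420 on the plus strand, differed most. It had −1.77 and −1.46 with NUMA1 and 3.76 and 3.64 with VIM, a difference of 5.31 ± 0.49 (SE, adjusted p = 7.8e-05 by limma). NUMA1 had at least 20 eCLIP beside at least 123 input reads and at least 7 beside at least 61, while VIM had 14 beside 5 and 19 beside 5. The locus was thus well covered in the NUMA1 input and thinly in the VIM input. It was below input in both AIFM1 libraries, at −1.97 and −2.45, and the RANGAP1 and RNF219 lists had no peak in it. V2, at chr1:109289377-109289414 on the plus strand, had 0.20 and 0.21 with NUMA1 and 4.60 and 5.80 with VIM, a difference of 5.00 ± 0.54 (SE). V2 was above input outside VIM too, as the AIFM1 libraries stood at 2.28 and 3.00 and the ZNF184 libraries at 2.08 and 2.09.

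V3, V5 and V10 also lay on opposite sides of the inputs. V3, at chr1:46075581-46075642 on the plus strand, had −1.60 and −0.66 with NUMA1 and 3.27 and 3.52 with VIM. V5, at chr12:10875757-10875867 on the minus strand, had −1.75 and −0.92 with NUMA1 and 3.27 and 2.52 with VIM. V10, at chr1:24298062-24298116 on the minus strand, had −1.74 and −0.75 with NUMA1 and 2.86 and 2.45 with VIM. Their VIM values rested on 6 to 14 eCLIP reads beside 3 to 8 input reads. V6, at chr7:65218280-65218326 on the plus strand, had −0.85 and −0.33 with NUMA1 and 4.01 and 3.13 with VIM, from 10 beside 3 and 8 beside 3 VIM reads. V9, at chr7:23434068-23434101 on the minus strand, had −0.15 and −0.23 with NUMA1 and 3.86 and 3.71 with VIM, but only 3 and 4 VIM reads stood beside 1 input read. V9 and V10, like V5, had no significant peak in any of the 4 libraries.

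In V4, V7 and V8 the NUMA1 libraries were above input as well. V4, at chr1:26799546-26799652 on the plus strand, had 0.17 and 0.52 with NUMA1 and 4.86 and 4.52 with VIM. With NUMA1 it had 52 eCLIP beside 83 input reads in replicate 1, and with VIM 6 beside 1 and 7 beside 1. V8, at chr9:136223158-136223226 on the minus strand, had 0.11 and 0.93 with NUMA1 and 4.60 and 4.52 with VIM, again with 1 input read behind each VIM value. V7, at chr21:9826216-9826248 on the plus strand, was the most enriched of the 10, with 5.98 and 5.99 with VIM, and its NUMA1 replicates were far apart at 0.60 and 3.17. V7 was also far above input with RANGAP1, at 4.47 and 4.42, and below it with AIFM1, at −0.36 and −0.96. Of V1 to V10, V1, V2, V4, V6 and V8 were significant in both VIM libraries and in no NUMA1 library.

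The regions called higher with NUMA1 were fewer, and in their medians NUMA1 was above input and VIM below it. Over the 48, the medians were 0.73 and 0.76 in the NUMA1 libraries and −1.13 and −1.24 in the VIM libraries. In 21 of the 48 both NUMA1 libraries were above input and both VIM libraries below it. The corresponding count, with the signs turned, was 53 of the 172 VIM calls. Centring adds 0.50 to every difference on the NUMA1 side, and all 48 were also called after it. The 10 with the largest difference are named N1 to N10.

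N1, at chr11:10530454-10530518 on the minus strand, stood apart from the other 9. It had 4.19 and 3.99 with NUMA1 and 0.09 and −0.84 with VIM, a difference of −4.46 ± 0.52 (SE, adjusted p = 0.000234 by limma). NUMA1 had 23 eCLIP beside 2 input reads and 15 beside 3, and VIM had at least 9 and at least 7 beside at least 41. N1 was above input with AIFM1, at 1.60 and 2.15, and with RANGAP1, at 0.73 and 0.74, and below it with ZNF184, at −3.43 and −1.83. The next largest difference was −2.78, in N2. N2, at chr9:137029600-137029648 on the minus strand, had 0.33 and 0.54 with NUMA1 and −2.59 and −2.11 with VIM, so it was near input with NUMA1 and depleted with VIM. N3, at chr11:32165336-32165358 on the minus strand, had 4.31 and 5.06 with NUMA1 and 1.86 and 2.03 with VIM. All 4 libraries were above input in N3, and the RANGAP1 libraries, at 6.32 and 6.62, and the ZNF184 libraries, at 5.50 and 7.20, were above NUMA1.

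The calls of N5, N6 and N10 depended on a NUMA1 library. N5, at chr14:90178940-90179011 on the plus strand, had 1.69 and 4.40 with NUMA1 and 0.30 and 0.64 with VIM, so the replicates of NUMA1 differed by more than the lower one differed from VIM. Without NUMA1 replicate 2 limma gave N5 a difference of −1.22 and did not call it (adjusted p = 0.28), and without NUMA1 replicate 1 a difference of −3.93. N9, at chr12:76443534-76443557 on the minus strand, had 1.85 and 1.99 with NUMA1 and 0.03 and −0.95 with VIM. N10, at chrX:73071532-73071603 on the minus strand, had 2.07 and 1.54 with NUMA1 and −1.37 and 0.21 with VIM. N9 and N10 were above input with NUMA1 and scattered around it with VIM, and N10 was not called without NUMA1 replicate 1 (adjusted p = 0.0652 by limma). N6, at chr11:62327221-62327279 on the minus strand, had −0.86 and 0.11 with NUMA1 and −3.36 and −2.36 with VIM. N8, at chr6:74230722-74230752 on the minus strand, had −0.49 and −0.36 with NUMA1 and −2.33 and −3.30 with VIM. N6 was not called without NUMA1 replicate 2 (adjusted p = 0.0518 by limma). In N6 and N8 the difference was thus a deeper depletion with VIM, with no enrichment in both NUMA1 libraries. N8 was above input with AIFM1, at 3.28 and 2.10, and with ZNF184, at 2.68 and 3.20. N4 and N7 are mitochondrial.

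The mitochondrial genome encodes 2 ribosomal RNAs, transfer RNAs and messenger RNAs of the respiratory chain, transcribed as long precursors from both strands. On the plus strand, in the RefSeq order of GRCh38.p14, the phenylalanine tRNA is followed by RNR1, the valine tRNA and RNR2, and then by the leucine tRNA TRNL1 and ND1. The gene borders in the mitochondrial sequence of the lists were not analysed here, so the regions are given by position. The shared regions held 53 on the mitochondrial chromosome, 50 of them on the plus strand. Their median difference was −0.08, against 0.37 for the 1227 nuclear regions. By limma 11 of the 53 (20.8%) were higher with NUMA1 and 7 (13.2%) higher with VIM, beside 3.75% and 13.4% of all shared regions.

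The 11 NUMA1 calls lay together. They ran on the plus strand from position 693 to 2868, a stretch defined by these calls, which held 15 shared regions. After centring 14 mitochondrial regions were called higher with NUMA1 and 4 higher with VIM. One of the added NUMA1 calls, chrM:11988-12039 (centred adjusted p = 0.0108 by limma), lay outside the stretch. In 14 of these 15 NUMA1 was above VIM. The medians over the 15 were 1.30 and 0.96 in the NUMA1 libraries and −0.79 and −0.70 in the VIM libraries. N4 (chrM:921-993) was the highest of the 15 with NUMA1, at 2.56 and 2.06, against −0.46 and −0.18 with VIM (adjusted p = 0.00452 by limma). N7 (chrM:693-783) had 1.91 and 1.94 with NUMA1 and −0.80 and −0.19 with VIM. Reads were plentiful here, and NUMA1 replicate 1 had at least 1107 eCLIP reads in N4 and at least 830 in N7 beside more than 400 input reads.

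The exception in the stretch was chrM:1618-1656, called higher with VIM, with 1.52 and 1.47 with NUMA1 and 2.62 and 4.01 with VIM. Among the 38 regions outside the stretch 6 were called higher with VIM, all 32 to 43 nt long. The largest was chrM:12208-12250 on the plus strand, with −1.67 and −1.43 with NUMA1 and 1.89 and 2.34 with VIM, a difference of 3.67 ± 0.49 (SE, adjusted p = 0.000567 by limma). It had neighbours on both sides that were also called for VIM. In chrM:12169-12202 the values were −0.08 and 0.32 with NUMA1 and 1.60 and 2.71 with VIM. In chrM:12283-12317 they were −0.04 and 0.34 with NUMA1 and 1.83 and 3.24 with VIM. The other 3 calls stood alone. The VIM calls at chrM:1618-1656, chrM:12169-12202 and chrM:5828-5859 were lost after centring, with adjusted p = 0.142, 0.072 and 0.113 by limma. In chrM:4420-4461 both NUMA1 libraries were at 0.95 and VIM at 3.81 and 4.35. In chrM:10009-10049 NUMA1 was at 0.70 and 1.18 and VIM at 2.63 and 4.53. On the minus strand chrM:5828-5859 had 2.67 and 2.97 with NUMA1 and 4.16 and 4.89 with VIM, the highest VIM mean on this chromosome. The region chrM:612-639 on the plus strand, at 2.09 and 2.70 with NUMA1 and 3.11 and 3.81 with VIM, was significant in both VIM libraries but was not called by limma.

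**Figure D3:**
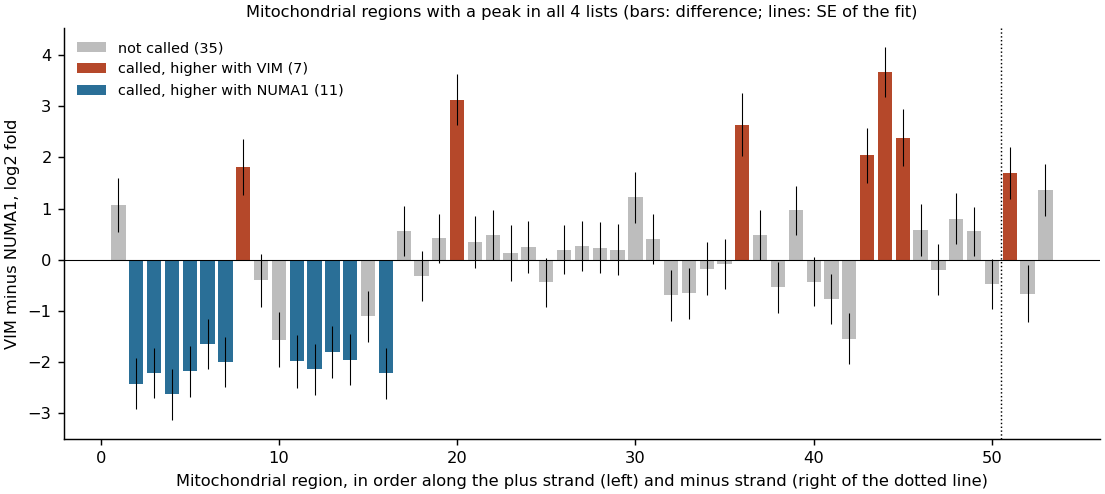
VIM minus NUMA1 in log2 fold (bars, with the standard error of the limma fit as lines) for the 53 mitochondrial regions in order along the plus strand, then the minus strand. The 11 regions called higher with NUMA1 lie together near the start of the plus strand with a median of −2.14, and of the 7 called higher with VIM 3 are neighbours and 4 stand alone.

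The other proteins also varied along the mitochondrial stretch, which is described with no test. Over the 15 regions between 693 and 2868, the medians were 0.86 and 2.14 in the AIFM1 libraries and 2.18 in the RNF219 library, from 12 to 14 regions with a peak. Outside the stretch they were 1.22 and 1.58 with AIFM1 and 1.34 with RNF219, so AIFM1 replicate 1 was lower inside it. AIFM1 was not above input along the whole stretch, and in chrM:2228-2303, a NUMA1 call, it stood at −2.59 and −1.83. AIFM1 is a flavoprotein of mitochondria. The RANGAP1 medians inside it were −1.37 and −1.73, and the ZNF184 medians were −0.69 and 0.08. RNF219 was above NUMA1 in N4 and N7, at 4.50 and 4.14. It was also above input in most mitochondrial VIM calls. It stood at 8.45 in chrM:10009-10049, 6.92 in chrM:12169-12202, 5.91 in chrM:4420-4461 and 5.64 in chrM:5828-5859. In chrM:1618-1656 it was at 3.66, in chrM:12283-12317 at 2.04 and in chrM:12208-12250 at −0.09.

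Thresholds alone picked out fewer loci than the test did. A significant peak in both VIM libraries and in no NUMA1 library was found in 28 regions (2.19%), and in both NUMA1 libraries and no VIM library in 6 (0.469%). Limma called 23 of the 28 higher with VIM, and 4 of the 6 higher with NUMA1. N1 and N3 were among the 6. The region chr19:22877617-22877710 on the minus strand had 3.71 and 5.17 with NUMA1 and 2.01 and 2.50 with VIM. The region chr1:91853051-91853157 on the minus strand had 3.05 and 3.58 with NUMA1 and 1.73 and 1.13 with VIM. The remaining 2, chrX:102841782-102841979 and chr11:35684950-35685137, both on the plus strand, had adjusted p = 0.0556 and 0.0563 by limma. Outside N1 both VIM libraries were above input in these regions, though not significant. The VIM list included chr3:12196524-12196580 on the minus strand, with 6.27 and 5.80 with VIM, which was also well above input with NUMA1, at 1.85 and 2.89. Over the 28 regions the medians were 3.86 and 3.78 in the VIM libraries and 1.24 and 1.88 in the NUMA1 libraries. NUMA1 was above input in 24 of the 28 in replicate 1 and in 26 in replicate 2, so most of these loci were above input with both proteins and differed in degree.

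The libraries of the other 4 proteins were not used to choose the regions or the calls, and their values are given as a description. In the 172 regions called higher with VIM the RANGAP1 libraries had medians of 1.56 and 1.68, against 0.59 and 0.53 over all shared regions with a RANGAP1 peak. In the 48 called higher with NUMA1 they had −0.67 and −1.05. RANGAP1, which activates the GTPase of the Ran transport cycle, was thus displaced to the same side as VIM. In their medians AIFM1 and RNF219 were displaced to the other side, though RNF219 was above input in most mitochondrial VIM calls. The AIFM1 medians were 0.38 and 0.00 in the VIM calls, 0.62 and 0.68 over all, and 0.80 and 1.30 in the NUMA1 calls. The RNF219 median was −1.26 in the VIM calls, −0.51 over all and 0.98 in the NUMA1 calls. RNF219 had a peak in 44.8% of the VIM calls against 69.8% of all shared regions. This share was also lower in the VIM calls in every RANGAP1, AIFM1 and ZNF184 library. For RANGAP1 it was 80.2% and 84.3% against 91.3% and 91.9%. The ZNF184 medians were 1.0 and 1.33 in the VIM calls and 1.05 and 1.5 in the NUMA1 calls. With the mitochondrial chromosome left out, RANGAP1 was at 1.56 and 1.71 in the VIM calls and −0.41 and −0.46 in the NUMA1 calls. AIFM1 was then at 0.37 and −0.05 in the VIM calls and 0.76 and 1.19 in the NUMA1 calls, RNF219 at −1.37 and 0.75, and ZNF184 at 1.03 and 1.32 against 1.24 and 1.93. Over the 1169 and 1176 regions with a peak in each RANGAP1 library, Spearman's rho with RANGAP1 ran from 0.59 to 0.66 for the VIM libraries and from 0.50 to 0.53 for the NUMA1 libraries. Over the 973 and 1172 regions with an AIFM1 peak it ran from −0.08 to 0.11 for VIM and from 0.10 to 0.25 for NUMA1. Each of these proteins had its own input, whose part in the pattern was not tested.

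**Figure D4:**
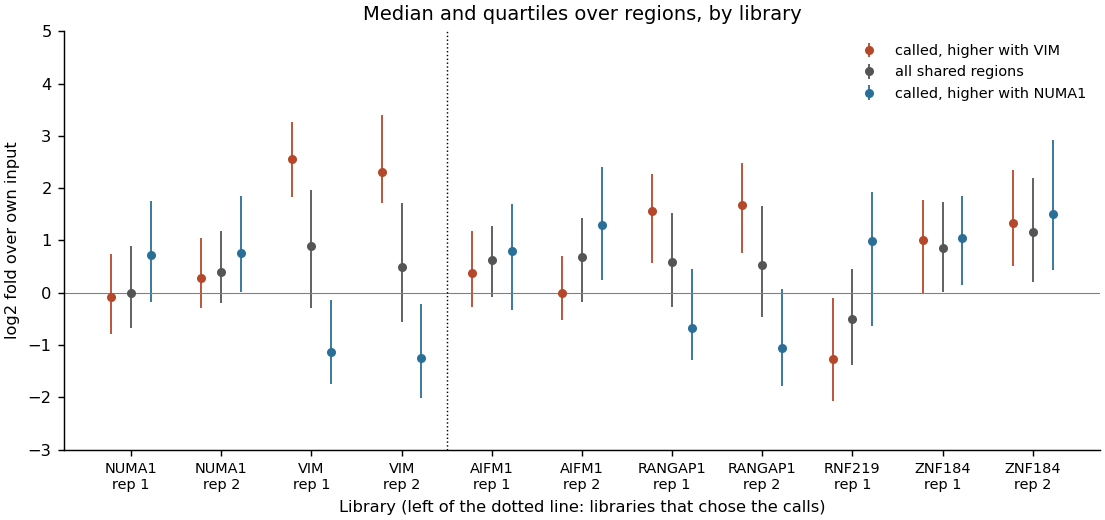
Median (points) and quartiles (lines) of the log2 fold over each library's own input in the 172 regions called higher with VIM, all 1280 shared regions and the 48 called higher with NUMA1, over regions with a peak in that library. Left of the dotted line are the 4 libraries that made the calls, and to the right the RANGAP1 medians are highest in the VIM calls while those of AIFM1 and RNF219 are highest in the NUMA1 calls.

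Shared regions also lay in runs along a strand. Nuclear regions within 5000 nt of each other were joined, a distance chosen after the data were seen, and 20 runs of at least 5 regions held 151 regions. The median difference was below 0 in 14 runs, above 0 in 5 and at 0 in 1, while it was 0.37 over all nuclear regions. All 5 regions were lower with VIM in each of 3 runs. These were chr6:33239850-33244178 on the plus strand with a median of −1.70, chr9:19376542-19380231 on the minus strand with −1.52, and chr5:149823846-149829300 on the minus strand with −1.10. In all 3 the NUMA1 medians lay between −0.63 and 0.03 and the VIM medians between −2.29 and −1.03, so both proteins were at or below input and VIM further below. The run at chr6:74227915-74230752 on the minus strand, which holds N8, had a median of −1.49. No run had all its regions higher with VIM.

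The runs with the highest medians were chr2:232319924-232329193 on the minus strand, with 9 regions and 1.04, chrX:73041484-73051045 on the minus strand, with 7 regions and 0.80, and chr11:65266519-65272977 on the plus strand, with 11 regions and 0.76. In the last of these the medians were 0.90 and 1.15 in the NUMA1 libraries and 1.29 and 1.90 in the VIM libraries, so both proteins were above input along the run. In the chr2 run the medians were 0.42 and 1.01 with NUMA1 and 2.33 and 0.68 with VIM. VIM replicate 2 was thus below NUMA1 replicate 2 there, and limma called none of its regions. The run at chr11:65190271-65197798 on the plus strand, with 13 regions, begins with S9. Its medians were 1.85 and 1.41 with NUMA1 and 1.36 and 2.08 with VIM, and its median difference was 0.00. The medians of the 2 proteins thus overlapped along it, and RANGAP1 was as high, at 1.98 and 2.35. The longest run by count was chrX:73061217-73071603 on the minus strand, with 22 regions and a median difference of −0.06. N10 is its last region by position and was above input with NUMA1, while the run as a whole was at −0.48 and −0.36 with NUMA1 and −1.0 and 0.04 with VIM.

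The reads behind single values were fewest in the VIM lists. In 297 regions each library had 1 peak with settled reads, and all of these were above input in all 4. There the difference was split into a part from eCLIP reads and a part from input reads, each centred on its median. Over these regions the SD was 1.06 for the eCLIP part and 1.22 for the input part. In the 83 of them with at least 10 input reads in each library the order turned, with an SD of 1.22 for the eCLIP part and 1.13 for the input part, and only 2 were called higher with VIM. Limma called 43 of the 297 higher with VIM and none higher with NUMA1. Only peaks above input had settled reads. Of the 48 NUMA1 calls, VIM was above input in 10 in replicate 1 and in 7 in replicate 2. Most NUMA1 calls thus could not be among the 297. Of the 172 VIM calls, NUMA1 was above input in 81 in replicate 1 and in 111 in replicate 2. Most VIM calls thus could not be among them either. In the 43 the median eCLIP part was 0.15 and the median input part −1.19, and the VIM input was relatively lower in 35 while VIM eCLIP reads were relatively higher in 26. The difference is the eCLIP part less the input part, so a call for VIM itself favours a low input part. Relatively low counts of the VIM input, which both VIM replicates share, thus stood beside these calls, and their part in them was not tested. With at least 10 input reads behind each library, 739 regions could be tested, and limma called 54 higher with VIM and 33 higher with NUMA1. By a criterion added after the data were seen, 130 of the 172 VIM calls and 42 of the 48 NUMA1 calls also exceeded the 95% counting interval of their difference, with each input counted once.

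**Figure D5:**
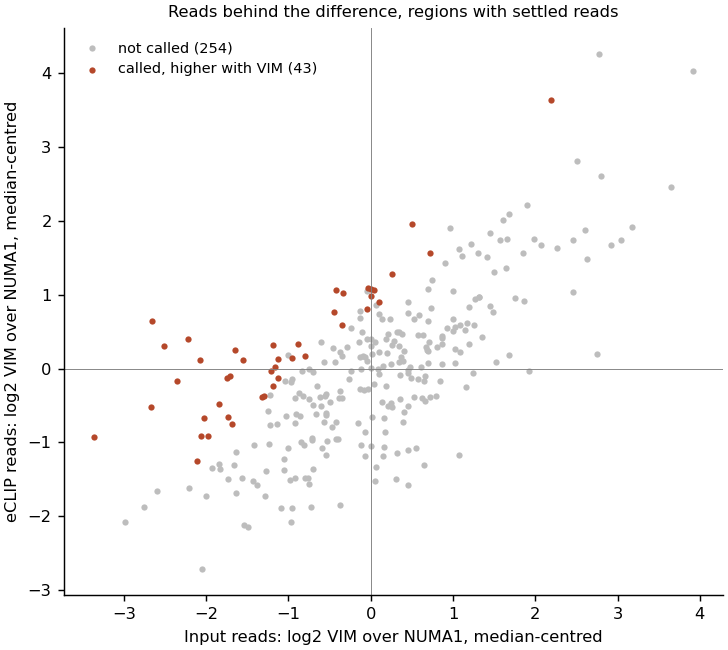
For the 297 regions with settled reads in all 4 libraries, the log2 ratio of VIM to NUMA1 eCLIP reads (vertical axis) against that of input reads (horizontal axis), both centred on their medians. The 43 regions called higher with VIM lie mostly left of 0, where the VIM input had relatively fewer reads, at a median of −1.19.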

How the data were processed

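Peak lists of 4 eCLIP libraries in 293T cells were compared, 2 of NUMA1 and 2 of VIM, with groups and replicate numbers from the sample titles. The series calls the replicates biological and says no more of their origin, so p-values measure the spread between these libraries. Tools in the submitters' processing notes are SAMtools, Picard, GATK, STAR and cutadapt, without versions, and the build is hg19. How peaks were called and whether PCR duplicates were removed are steps not given in the sources used. Per the files, the deposited lists were 1 per library. They hold the authors' −log10 p of each peak against its input, which is 0 below input and does not go above 400, and the authors' log2 fold over that input.

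From these, merged regions with a peak in all 4 lists were taken, and the log2 folds of a library were averaged by length within a region. The 2 VIM libraries were compared with the 2 NUMA1 libraries in limma 3.58.1 (lmFit and eBayes, R 4.3.3), tested on simulated data, with Benjamini-Hochberg adjustment over all 1280 regions and a call at an adjusted p under 0.05. The simulated libraries had independent errors and no shared input, so the simulation does not cover error of the inputs. Since eBayes borrows spread across regions (a prior SD of 0.526 with 11.1 degrees of freedom), 2 libraries a group can pass. Library medians were compared by an exact permutation test (2-sided). Reads were recovered as whole numbers that give both the fold, to within 1e-07 on the log2 scale, and the p-value, to within 0.005 on the log10 scale. Between 99.2% and 99.5% of the folds of a library were such ratios. Where the p-value settles nothing (below input or saturated), the least whole numbers are given as "at least", and ratios that need more than 400 input reads are given as such. For several pieces of a library in a region, the reads are those of the longest. Counting intervals rest on them and cover counting error only.

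Named were the regions significant in all 4 libraries, the 10 largest called differences without overlap in each direction, and the largest mitochondrial difference in each direction, with regions within 100 nt named once. Other regions of the threshold lists, runs and mitochondrial stretch were chosen after their values were seen. The members, the rule and the lists were chosen with earlier results of these data known. Alternatives were the highest piece, stricter or looser overlap, at least 10 input reads (for the deepest piece), no mitochondrial chromosome, centring, a replicate block, a trended robust prior, stricter thresholds and leaving out each library. Gene names, gene structure and sequences at the regions, the mRNAs of NUMA1 and VIM and the planned gene lists were not analysed here.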

Additional observations from a re-analysis of the deposited data

Results flagged for a closer look

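In 10 of the named regions every library of one protein was above its input and every library of the other below, with a difference that passed limma. VIM was the higher protein in V1 (VIM minus NUMA1 of 5.31), V3 (4.52), V5 (4.23), V6 (4.16), V9 (3.97), V10 (3.90) and the mitochondrial region chrM:12208-12250 (3.67). NUMA1 was the higher protein in N2 (−2.78) and in the mitochondrial regions N4 (−2.63) and N7 (−2.42). The VIM values of V9 rested on 3 and 4 eCLIP reads beside 1 input read, whereas N2, N4 and N7 had more than 400 input reads with VIM. These regions were named for their size of difference, so their agreement in sign is no further evidence.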

How the results depend on the processing

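Of the 172 VIM and 48 NUMA1 calls by limma, centring, which shifts every difference by the same amount, kept 98 and 48 (146) and called 98 and 131. At least 10 input reads left 739 regions, 87 calls and 54 for VIM. An adjusted p under 0.01 left 62 calls, 56 for VIM and 6 for NUMA1. Leaving out 1 library gave 0 to 186 calls, 0 to 168 for VIM and 0 to 19 for NUMA1. Counted over the libraries left, 9 to 24 regions were significant in all of them, 28 to 68 with VIM alone and 7 to 14 with NUMA1 alone. A log2 fold of at least 4 gave 3, 14 and 1, and a −log10 p of at least 5 gave 4 significant in all 4. The difference of library medians ran from 0.30 to 0.70 without 1 library and was 0.25 with at least 10 input reads, which moved the nuclear median difference to 0.14 and the mitochondrial one to 0.03. Centring moved the mitochondrial median difference to −0.58 and the nuclear one to −0.13, and without 1 library they ran from −0.09 to 0.14 and from 0.20 to 0.55. The cause of these shifts was not tested. Among the shared loci S2 turned to −0.34 centred and −0.22 without VIM replicate 1, S4 to −0.49 centred, −0.90 and 0.92 without NUMA1 replicate 1 or 2 and −0.13 without VIM replicate 1, and S8 to −0.12 centred. With the replicate number as a block, limma called 150 regions for VIM and 35 for NUMA1, 143 and 32 of them among the calls without it. The numbers did not pair the samples (correlation of deviations −0.06). Counts of calls under the other alternatives stayed within 1.5 times the values above.
Limits: the VIM values had a median of 7.0 and 9.0 eCLIP reads, both replicates of a protein share 1 input, and each protein had 2 libraries. Without a VIM library, limma takes the spread between replicates from NUMA1 alone. The lack of calls there thus cannot show that a region rests on 1 VIM library. Without VIM replicate 1 or 2 the difference was 5.25 and 5.37 in V1 and −4.93 and −4.00 in N1. Regions with a peak in only some lists were not compared, so loci bound by 1 protein alone are outside these values.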
